A study of Mus musculus with 29 samples.

Results

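The regions described here are distal enhancer-type regions of mouse macrophage-like cells that carried both H3K27ac and H3K36me2 before stimulation. They are the untreated H3K4me1 peaks on chromosomes 1 to 19 and X that overlapped, by at least 1 bp, an untreated H3K27ac peak and an untreated H3K36me2 peak. None of them overlapped an untreated peak of H3K4me3, H3K36me3, H3K79me2 or H3K27me3. The rule found 4749 members among 65547 untreated H3K4me1 peaks, of which 43936 lacked H3K4me3 and are called distal here. Distal refers to the marks alone, since the regions were not assigned to genes.

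The cells are RAW264.7, an established mouse macrophage-like line transformed by Abelson murine leukaemia virus, studied by chromatin immunoprecipitation and sequencing. Each of 7 histone marks was mapped in untreated cells and after lipopolysaccharide (LPS) at 100 ng/ml for 1 h or 4 h, and PU.1 was mapped in untreated cells only. H3K4me1 and H3K36me2 were also mapped after 1 h of flavopiridol without LPS, and after 1 h of flavopiridol with LPS for 4 h. There is 1 library per mark and condition, 26 peak lists in all, and 3 input samples whose reads are not analysed here. All groups are of 1 cell line, which stands in for macrophages and need not carry every enhancer of primary cells.

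With single libraries no spread between cultures can be measured, and no test between conditions or between classes of regions was possible. Shares are given with 95% Wilson intervals, which cover counting error only, and neighbouring regions can share a peak. Read depth is unknown, because the lists carry no read totals, so a peak that is absent from a list was not called there and may still hold some signal. The untreated values of H3K4me1, H3K27ac and H3K36me2 chose the members and are given as a description.

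H3K4me1 marks enhancers and the flanks of promoters, and H3K27ac, placed by the acetyltransferases p300 and CBP, is found on enhancers that are active. H3K36me2, placed by NSD family methyltransferases, forms broad domains within and between genes and is distinct from H3K36me3, which SETD2 places over transcribed gene bodies. PU.1 is the ETS-family factor that establishes most macrophage enhancers by binding its sites in closed chromatin together with partner factors. LPS activates macrophages through Toll-like receptor 4, after which NF-κB, AP-1 and interferon-regulatory factors act largely on enhancers already held by PU.1. Flavopiridol inhibits CDK9, the kinase that releases paused RNA polymerase II into elongation.

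The members were wide regions in which a compact H3K27ac core lay inside a broader H3K36me2 domain. Their width ran from 353 to 39139 bp, with a median of 3039 bp and a middle range of 2045 to 4689 bp, and together they spanned 18.1 Mb. H3K27ac covered 49.7% of this length and H3K36me2 81.5%. H3K36me2 covered 2693 members (56.7%) from end to end. It covered 79.7% of the H3K27ac-covered part of members and 83.3% of the rest, so not all of the core lay under it. It ran past both edges of the H3K4me1 peak in 3314 members (69.8%), past 1 edge in 1209 and past neither in 226. H3K27ac crossed an edge in 580 members (12.2%), and 4350 members held a single H3K27ac peak. So H3K27ac mostly ended within the region and H3K36me2 mostly went on beyond it.

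The position of each mark along the members showed the same contrast. At the centre of the region, 70.8% of members had H3K27ac and 40.7% had PU.1. At 1 kb from the centre the shares were 33.8% and 35.0% for H3K27ac on the 2 sides, and 16.2% and 16.1% for PU.1. H3K36me2 had a shallow dip at the centre, where 77.1% of members were covered, between shoulders of 81.4% and 81.3% at 1 kb. At 6 kb it still covered 53.1% and 52.5% of members. H3K27me3, the Polycomb mark that the rule keeps out of the regions, rose from 0% at the centre to 14.0% and 12.7% at 6 kb.

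**Figure D1:**
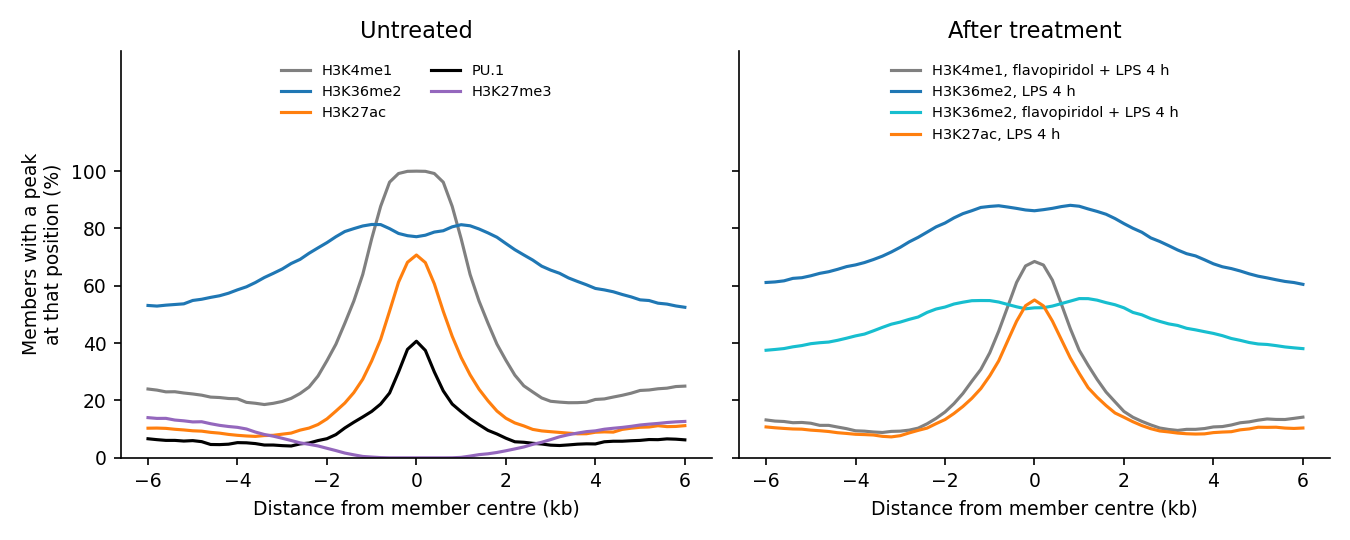
Share of the 4749 members (y axis, %) with a peak at each distance from the centre of the region (x axis, kb), in untreated cells on the left and after treatment on the right, with 1 line per peak list. In untreated cells H3K27ac and PU.1 peak at the centre, at 70.8% and 40.7%, while H3K36me2 dips there to 77.1% and stays at 53.1% and 52.5% at 6 kb. H3K36me2 is higher at 4 h of LPS and lower when flavopiridol came first.

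Members lay kilobases away from promoter marks. The nearest untreated H3K4me3 peak was at a median of 18.4 kb (middle range 7.91 to 46.6 kb) and within 2 kb of 97 members. The nearest H3K36me3 peak was at a median of 29.5 kb and the nearest H3K79me2 peak, which marks the start of transcribed genes, at 60.5 kb. H3K27me3 was closer, at a median of 13.6 kb, and 886 members (18.7%) had it within 2 kb. Neighbouring members were a median of 86.9 kb apart, and 887 of 4729 gaps were under 10 kb. In all, 1377 members (29.0%) shared an H3K36me2 peak with another member, and 4 H3K36me2 peaks held 6 members each. The H3K36me2 peaks that held a member had a median width of 6506 bp, against 2474 bp for all peaks of that mark, and they are chosen here for overlapping wide regions.

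By overlap length, few members sat at the edge of the rule. Of the 4749, 14 had 200 bp or less of H3K27ac (lowest 30 bp) and 100 had 200 bp or less of H3K36me2 (lowest 1 bp). Just outside, 24 of the 7908 regions with H3K36me2 as their only other mark had H3K27ac within 200 bp. Of the 765 regions with H3K27ac as their only other mark, 47 had H3K36me2 within 200 bp. The largest set kept out by a single further mark was that with H3K4me3, 5415 regions, of which 178 had 200 bp or less of it. H3K36me3 alone kept out 1792, of which 148 (8.26%) had 200 bp or less of it. H3K27me3 alone kept out 414, of which 99 (23.9%) had so little, and H3K79me2 alone 246, of which 6 did. Membership depended more on peak strength. When every peak had to reach a −log10 q of 2 there were 2386 members, and 46.6% of untreated H3K36me2 peaks reached it.

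Members were spread over all 20 chromosomes, which carried between 1.19 members per Mb, on X, and 2.45, on chromosome 19. Although X had the fewest members per Mb, they made up 17.0% (95% interval 15.0 to 19.3) of its distal regions, against 8.84% to 13.0% on the autosomes. Among distal regions with H3K27ac the members' share was 60.2% on X and 36.4% to 51.6% on the autosomes. The distal regions of X carried H3K27me3 in 1.81%, against 14.4% to 24.4% on the autosomes, and H3K36me2 in 54.9%, within the autosomes' 45.7% to 57.8%. They carried H3K27ac in 28.3%, against 20.5% to 27.2% on the autosomes. Since H3K27ac is required of the members and H3K27me3 takes a region out, these shares are side by side and their part in the X value was not tested.

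PU.1, which the rule did not use, lay in nearly all members. A PU.1 peak overlapped 4360 of 4749 members (91.8%, 95% interval 91.0 to 92.6), beside 60.9% of all distal regions. Regions with H3K27ac alone had it in 87.5% (84.9 to 89.6), those with H3K36me2 alone in 51.6% (50.5 to 52.7), and all other distal regions with H3K27ac in 86.6% (85.7 to 87.5). Members held 1 PU.1 interval in 51.8% and 2 or more in 40.0%. In 108 members there were 5 or more, and the most was 13. The authors' fold enrichment of the strongest PU.1 peak in a member had a median of 13.9 (middle range 7.57 to 23.4), against 12.7 in regions with H3K27ac alone and 7.05 in those with H3K36me2 alone.

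The share with PU.1 rose with width. Among members PU.1 lay in 61.2% of the 85 regions under 1000 bp, 83.4% of the 1034 from 1000 to 2000 bp, 92.3% of the 2024 from 2000 to 4000 bp and 98.3% of the 1606 of 4000 bp and over. Regions with H3K27ac alone had 65.3%, 87.6%, 94.5% and 97.4% in the same width classes, and each interval overlapped that of the members. Regions with H3K36me2 alone had 33.8%, 57.7%, 70.8% and 87.6%, below the members in each class. The members' higher share over all widths thus stands beside overlapping intervals at like width in the class with H3K27ac alone, whose median width was 1703 bp. All other distal regions with H3K27ac had 53.1%, 78.9%, 88.0% and 95.3%. The part of them that overlapped H3K36me3 had 43.9%, 74.8%, 86.2% and 94.6%. Both lay below the members in each width class, with intervals that overlapped the members' only under 1000 bp. Per length, members held 0.408 PU.1 intervals per kb, regions with H3K27ac alone 0.571 and regions with H3K36me2 alone 0.408.

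**Figure D2:**
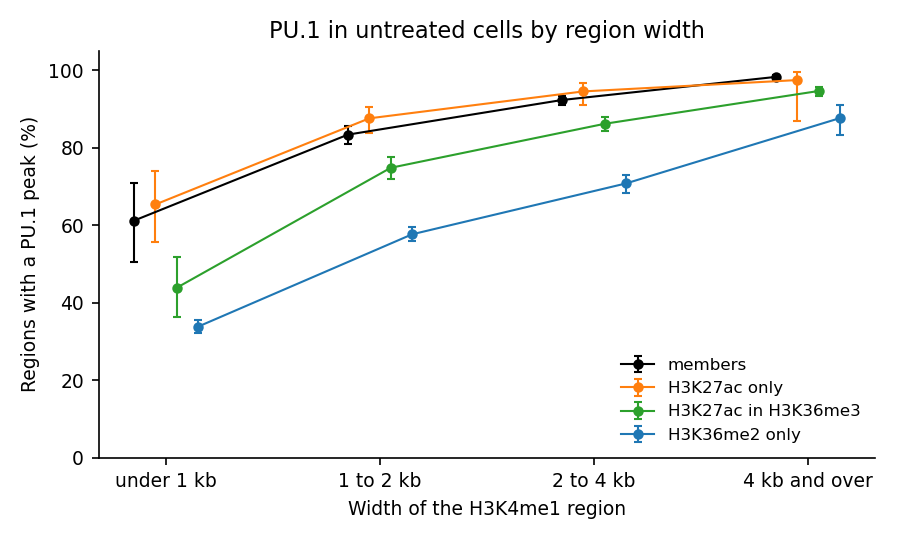
Share of regions with an untreated PU.1 peak (y axis, %) by width of the H3K4me1 region (x axis) for members and for 3 other classes of distal regions, named by their other marks, with 95% Wilson intervals. Members and regions with H3K27ac only lie together, from 61.2% and 65.3% under 1 kb to 98.3% and 97.4% at 4 kb and over, and regions with H3K36me2 only lie lower throughout. Regions with H3K27ac in H3K36me3 lie below members, from 43.9% under 1 kb to 94.6% at 4 kb and over.

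Inside the members, PU.1 summits lay on the acetylated core beyond its share of the length, and under H3K36me2 below the share of that mark. Of 8064 PU.1 summits in members, 76.4% (75.4 to 77.3) lay in H3K27ac, which covered 49.7% of the length. H3K36me2 held 71.3% (70.3 to 72.3) of the summits while covering 81.5% of the length. PU.1 peaks covered 39.3% of the H3K27ac-covered part of members and 9.83% of the rest. H3K36me2 covered 79.7% of the H3K27ac-covered part and 83.3% of the rest, a smaller contrast than that at the summits. Regions with H3K36me2 alone had a like deficit, with 74.7% (73.4 to 75.9) of 4732 summits in the mark and 81.0% of the length. Other distal regions with H3K27ac had 73.5% (72.6 to 74.4) of 8667 summits in H3K27ac, which covered 44.5% of their length. H3K36me2 held 37.9% (36.9 to 38.9) of those summits and covered 50.4% of that length. Both traits are thus not particular to members.

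The members with most PU.1 were among the widest, and they show how a region of this kind is laid out. The widest lay on chromosome 5 from 53864862 to 53904000 (39139 bp, mm9) and held 7 PU.1 intervals. Its H3K27ac covered 39.5% of the length in untreated cells, 36.2% at 1 h of LPS and 58.8% at 4 h, while H3K36me2 covered 92.8%, 93.1% and 96.1%. The region with the most PU.1, 13 intervals, was the second widest, on chromosome 4 from 144839784 to 144869501. There H3K27ac went from 76.3% to 94.6% and 100% of the length, H3K36me2 from 88.8% to 88.3% and 93.7%, and H3K4me3 covered 6.08% at 4 h. In the third widest, on chromosome 17 from 71465811 to 71494505 with 10 PU.1 intervals, H3K27ac fell from 53.8% to 43.0% and 39.7%. That is 1 course of several. The next 2, on chromosome 8 from 129385324 to 129412078 and on chromosome 4 from 55807761 to 55832051, also had less H3K27ac at 4 h, at 63.1% against 100% and 49.6% against 91.6%. Of the 5 widest, 2 therefore had more H3K27ac at 4 h than before and 3 had less, and all 5 had more H3K36me2. The other 2 members among the 5 with most PU.1 held 9 intervals each. In the one on chromosome 4 from 47280424 to 47293685 (13262 bp) H3K27ac went from 70.8% to 76.0% and 43.8%, and in the one on chromosome 6 from 129444188 to 129459053 (14866 bp) from 53.3% to 20.5% and 22.8%. H3K36me2 covered 100% of both at each of the 3 times, the most that this measure can show.

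Strong PU.1 binding was not limited to such large regions. The PU.1 peak with the highest fold enrichment in a member, 68.7 by the authors' value, lay in a region of 3905 bp on chromosome 10 from 84654878 to 84658782. This region held no other PU.1 interval. Its H3K27ac covered 57.6% before LPS, 31.5% at 1 h and 100% at 4 h. The region ranked next, on chromosome 2 from 129196065 to 129200701 with a fold of 65.2, had H3K27ac over 76.6%, 100% and 100% and H3K4me3 over 18.3% at 4 h. In contrast the third, on chromosome 1 from 52966192 to 52969328 with a fold of 64.1 and 3 PU.1 intervals, went from 36.1% H3K27ac to none at 1 h and 12.8% at 4 h. The fourth, on chromosome 8 from 129274994 to 129292593 (17600 bp, fold 62.0), went from 59.3% to 43.3% and 35.2%, and the fifth, on chromosome 10 from 21607437 to 21611293 (fold 61.9), from 57.2% to 49.0% and 43.3%. A strong untreated PU.1 peak was therefore found beside both more and less H3K27ac after LPS. The widest member without any PU.1 peak, 9838 bp on chromosome 1 from 193032129 to 193041966, had H3K27ac over 17.7%, 13.5% and 24.0% and H3K36me2 over all of its length at each of the 3 times.

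After LPS, H3K27ac was the mark most often absent from members, and nearly all still had a called peak of H3K4me1 and H3K36me2. When peaks had to reach a −log10 q of 2, which leaves 2386 members, H3K27ac was in 67.1% at 1 h and 75.7% at 4 h, H3K36me2 in 84.0% and 89.0%, and H3K4me1 in 89.1% and 93.5%. H3K27ac was absent from 1405 members (29.6%) at 1 h, beside 32.5% of all distal regions that had it before. At 4 h it was absent from 1034 (21.8%), beside 23.3%. It covered 49.7% of the members' length before LPS, 34.2% at 1 h and 40.7% at 4 h. The whole H3K27ac lists covered 83.6, 73.1 and 90.7 Mb in the same order, so the list at 4 h was longer than the untreated one although the members held less of it. Because the members were chosen for having untreated H3K27ac, their count with the mark can only fall. Their losses are close to the background of distal regions chosen in the same way.

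H3K36me2 was absent from 52 members (1.09%) at 1 h, beside 3.73% of distal regions that had it before, and from 57 (1.20%) at 4 h, beside 2.73%. Its share of the members' length rose from 81.5% to 87.2% and 88.8%. Between untreated cells and 4 h it covered more of 1687 members, less of 464 and the same length of 2598. The whole H3K36me2 lists grew too, from 281.1 Mb to 320.5 and then 348.8 Mb, and their part in the members' rise was not tested. H3K4me1 was absent from 13 members at 1 h and 5 at 4 h, 0.274% and 0.105%, beside 14.5% and 8.91% of all distal regions. Other distal regions with H3K27ac lacked it in 1.28% and 0.944%. H3K4me1 covered 90.3% and 92.5% of the members' untreated length. H3K4me1 losses among distal regions were concentrated in narrow ones: in all distal regions under 1000 bp 66.5% had the mark at 1 h, and in those of 4000 bp and over 99.9%. Members are mostly wide.

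Members that changed were mostly left with H3K4me1 and H3K36me2 and without H3K27ac. At 4 h, 3694 members (77.8%) had both H3K27ac and H3K36me2, 998 (21.0%) had H3K36me2 without H3K27ac, 21 had H3K27ac without H3K36me2 and 36 had neither. At 1 h the numbers were 3325, 1372, 19 and 33. With the other marks counted too, 2975 members (62.6%) had exactly their untreated combination at 1 h and 3111 (65.5%) at 4 h. Of all members, 432 (9.10%) had gained at least 1 of the 4 marks absent before at 1 h, and 663 (14.0%) at 4 h.

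**Figure D3:**
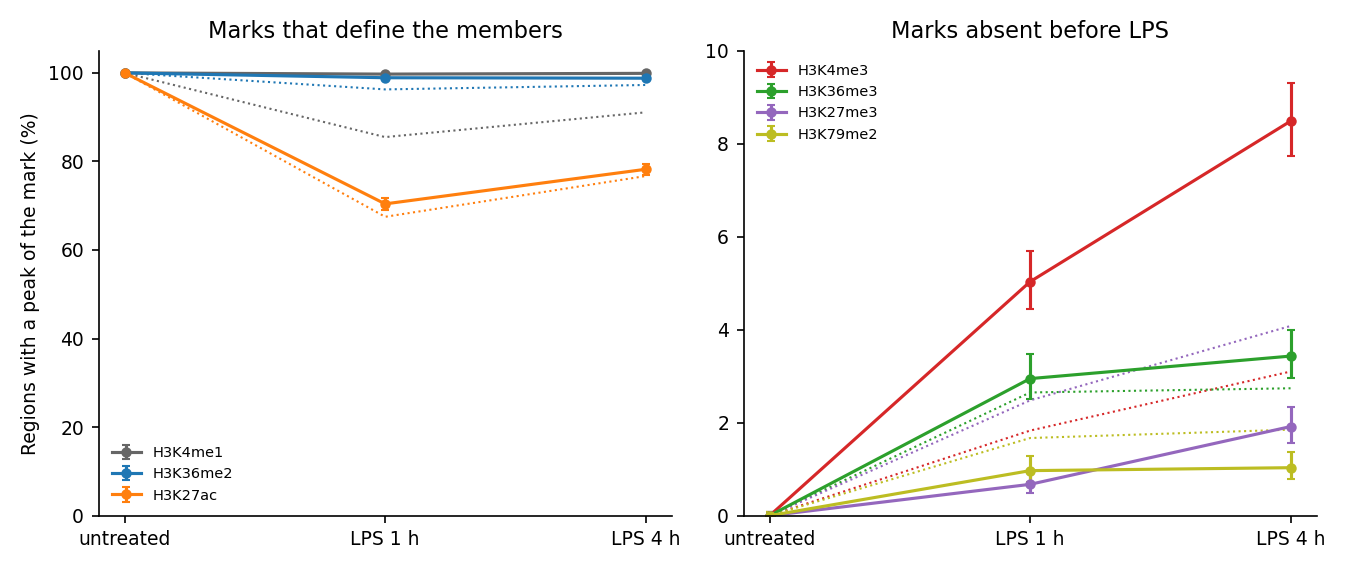
Share of members with a peak of each mark (y axis, %, solid lines with 95% Wilson intervals) in untreated cells and after LPS (x axis), and the same share of all distal regions that had, on the left, or lacked, on the right, the mark before LPS (dotted lines in the same colours). On the left H3K27ac falls to 70.4% and returns to 78.2% of members while H3K4me1 and H3K36me2 are in 98.8% or more. On the right, where the axis ends at 10%, H3K4me3 reaches 8.49% of members at 4 h and 3.1% of all distal regions.

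Followed one by one, the members took 4 courses in H3K27ac. It was called at both times in 3148 members (66.3%, 64.9 to 67.6). In 567 (11.9%, 11.0 to 12.9) it was absent at 1 h and back at 4 h, which is 40.4% of those that had lost it at 1 h. In 196 (4.13%) it was present at 1 h and absent at 4 h, and in 838 (17.6%, 16.6 to 18.8) absent at both. Of the 765 regions with H3K27ac and no H3K36me2 or other mark, 35.4% (32.1 to 38.9) kept it at both times and 43.1% (39.7 to 46.7) lacked it at both. Distal regions with H3K27ac in H3K36me3 had 68.1% (66.7 to 69.5) and 13.8% (12.8 to 14.9). All other distal regions with H3K27ac had 61.0% (59.7 to 62.2) and 20.4% (19.4 to 21.5). Among regions without it at 1 h, these classes had it back at 4 h in 26.2%, 51.0% and 41.5%, in the same order. Keeping H3K27ac is thus not particular to members.

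The course went with how much H3K27ac a member had to begin with. The median untreated H3K27ac length was 1721 bp in members that kept it at both times, 857 bp in those that regained it, 1138 bp in those that lost it at 4 h and 733 bp in those that lacked it at both. PU.1 lay in 94.9%, 88.5%, 85.2% and 83.8% of them in the same order. Their median widths were 3497, 2314, 2512 and 2167 bp, and per length they held 0.398, 0.459, 0.422 and 0.431 PU.1 intervals per kb, lowest in the members that kept H3K27ac. H3K36me2 at 4 h was found in 96.4% or more of each of the 4 sets and covered 90.2%, 85.6%, 84.2% and 83.4% of their length. It was absent at 4 h from 36 of the 1034 members without H3K27ac and from 21 of the 3715 with it.

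When members were grouped by untreated H3K27ac length, the share that kept the mark rose steeply. At 1 h it was 32.2% (28.3 to 36.4) of the 512 members with under 500 bp, 48.8% (45.9 to 51.7) of the 1143 with 500 to 1000 bp and 76.9% (74.8 to 78.8) of the 1672 with 1000 to 2000 bp. It was 91.9% (90.0 to 93.4) of the 973 with 2000 to 4000 bp and 98.4% (96.8 to 99.2) of the 449 with 4000 bp and over. At 4 h the shares were 52.3%, 63.0%, 83.0%, 92.2% and 98.7%. The share at 4 h was thus well above that at 1 h in members with short H3K27ac, and those with 2000 bp or more had nearly the same share at both times. H3K27ac was counted anywhere in the H3K4me1 region, and region width rose with untreated H3K27ac length (Spearman rho 0.637). Length is thus not separate from region width in how presence was counted.

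At the same untreated H3K27ac length, a larger share of members than of regions with H3K27ac alone had H3K27ac at 4 h. Those regions had it in 37.4% (31.5 to 43.7) of 238 with under 500 bp, 50.0% (44.5 to 55.5) of 316 with 500 to 1000 bp and 66.7% (59.6 to 73.1) of 183 with 1000 to 2000 bp. The members' intervals in these length classes, 48.0 to 56.6, 60.2 to 65.7 and 81.1 to 84.7, lay above them. From 2000 to 4000 bp only 27 such regions existed, with 70.4% (51.5 to 84.1). Distal regions with H3K27ac that also overlapped H3K36me3, the mark of transcribed gene bodies, had 56.0%, 70.0%, 85.5%, 96.4% and 100%, close to or above the members. The higher share is thus not particular to members, and no test of these differences was possible with 1 library per mark. Members were also wider than regions with H3K27ac alone, at a median of 3039 bp against 1703 bp, and width was not matched.

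**Figure D4:**
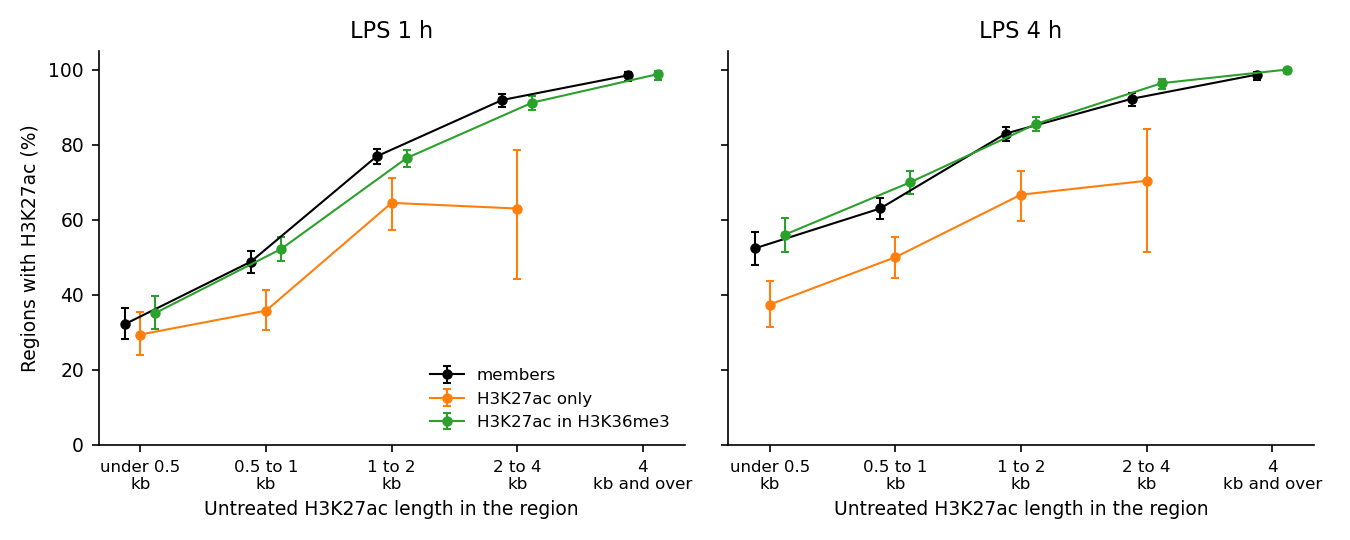
Share of regions with an H3K27ac peak after 1 h (left) and 4 h (right) of LPS (y axis, %) by the untreated length of H3K27ac in the region (x axis), for members and for distal regions with H3K27ac only or with H3K27ac in H3K36me3, with 95% Wilson intervals and points of at least 20 regions. Members climb from 32.2% to 98.4% at 1 h and from 52.3% to 98.7% at 4 h, and regions with H3K27ac only lie below them at 4 h.

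At 4 h the share of members with H3K27ac differed by PU.1 in some classes of untreated H3K27ac length. Among members with 500 to 1000 bp of untreated H3K27ac, 46.4% (38.4 to 54.7) of the 140 without PU.1 had H3K27ac at 4 h, 63.2% (59.7 to 66.6) of the 756 with 1 PU.1 interval and 71.7% (65.7 to 76.9) of the 247 with 2 or more. From 1000 to 2000 bp the shares were 70.9% (62.2 to 78.4), 84.2% (81.9 to 86.3) and 83.2% (79.7 to 86.1). Under 500 bp they were 53.5%, 51.5% and 53.5%, with overlapping intervals. Members without PU.1 thus had the lower share of H3K27ac at 4 h in those 2 classes and not in the shortest. At 1 h the intervals from 500 to 1000 bp overlapped, at 40.7% (32.9 to 49.0), 49.7% (46.2 to 53.3) and 50.6% (44.4 to 56.8). From 1000 to 2000 bp the shares at 1 h were 65.0%, 79.7% and 73.8%. Other distal regions with H3K27ac had 61.1%, 62.0% and 65.0% at 4 h from 500 to 1000 bp. From 1000 to 2000 bp they had 72.2%, 81.7% and 84.2%. The number of PU.1 intervals rose with width (Spearman rho 0.655), and width was not matched.

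The widest member without H3K27ac after LPS was the same at both times. It lay on chromosome 5 from 141513534 to 141524856 (11323 bp) and held 3 PU.1 intervals. H3K27ac had covered 51.9% of it before LPS. H3K36me2 went from 82.8% to 81.4% and 79.9% there, and H3K4me1 covered 64.8% and 66.4%. The widest member without H3K36me2 at 1 h, on chromosome 11 from 116640962 to 116646787, had it over 33.1% before and 53.8% at 4 h. At 4 h the widest without it, on chromosome 17 from 66264150 to 66269161, had 25.0% before LPS and lacked H3K27ac at both times. It held 3 PU.1 intervals and gained H3K4me3 over 6.86% and 13.5% of its length. Both had less of it at the start than the 81.5% of the members' summed length.

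By any overlap, the mark that members gained most often was H3K4me3. When at least 20% of the region had to be covered, its share at 4 h was 1.58% (1.24 to 2.01), beside 1.23% (0.930 to 1.62) for H3K36me3, with overlapping intervals. It appeared in 239 members (5.03%, 4.45 to 5.69) at 1 h, beside 1.83% of all distal regions, and in 403 (8.49%, 7.73 to 9.31) at 4 h, beside 3.1%. Other distal regions with H3K27ac had it in 6.32% (5.73 to 6.97) at 4 h, those with H3K27ac alone in 10.1% (8.13 to 12.4) and those with H3K36me2 alone in 0.632% (0.480 to 0.833). Distal regions with H3K27ac in H3K36me3 had it in 4.19% (3.62 to 4.84). Each of these classes with H3K27ac thus had a larger share than regions with H3K36me2 alone, and the shares differed among them. In 379 of the 403 members H3K4me3 came from peaks that met no untreated H3K4me3 peak, and not from the spread of an old one. H3K4me3 covered a median of 444 bp in them, and 136 members had it at both times.

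Members that gained H3K4me3 at 4 h had a larger median width and were nearly all acetylated. Their median width was 3797 bp, against 2984 bp for the other members, and their untreated H3K27ac had a median of 1862 bp, against 1301 bp. H3K27ac was present at 4 h in 393 of the 403 (97.5%) and in 76.4% of the rest. PU.1 lay in 94.8% and 91.5%. By course, 374 of the 403 had kept H3K27ac at both times, 19 had regained it, 3 had lost it at 4 h and 7 lacked it at both. The share of members that gained H3K4me3 did not simply rise with width. In the width classes given for PU.1, from narrowest to widest, it was 15.3%, 4.35%, 7.41% and 12.1% at 4 h. The narrowest class held only 85 members.

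The members with most H3K4me3 at 4 h lay on 3 chromosomes and differed in their earlier state. On X from 163663225 to 163671565 (8341 bp, 4 PU.1 intervals), H3K4me3 covered 27.6% at 4 h and none at 1 h, while H3K27ac went from 78.9% to 87.5% and 63.8%. On chromosome 9 from 41383825 to 41386903 (3079 bp), it covered 68.7% at 4 h and none at 1 h, and H3K27ac went from 63.2% to 59.8% and 91.8%. On chromosome 19 from 34643771 to 34646191 (2421 bp), H3K4me3 covered 13.8% at 1 h and 83.3% at 4 h. There H3K27ac rose from 19.3% to 40.0% and 100%, H3K36me2 fell from 100% to 39.0%, and H3K36me3 and H3K79me2 appeared over 19.9% and 17.3% at 4 h. At 4 h this last region thus carried promoter and transcription marks beside H3K4me1 over 53.4%.

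Marks of transcribed genes were gained in few members. H3K36me3 appeared in 140 members (2.95%) at 1 h, beside 2.65%, and in 163 (3.43%) at 4 h, beside 2.74%. In 93 of the 163 a peak that already existed outside the member had reached it, and in 70 the peaks were new. H3K79me2 appeared in 46 members (0.969%) at 1 h, beside 1.67%, and in 49 (1.03%) at 4 h, beside 1.85%. At 4 h H3K79me2 came from new peaks in 37 of the 49. Both marks' counts are near or under the background.

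A few members were covered by these marks along nearly their whole length. The member on chromosome 11 from 48903588 to 48908202 (4615 bp, 2 PU.1 intervals) had neither mark before LPS or at 1 h and at 4 h had H3K36me3 over 100% and H3K79me2 over 97.0%. Its H3K27ac, 9.95% before, was absent at both times, and its H3K36me2 went from 68.5% to 100% and 22.4%. H3K36me3 covered 100% at 4 h of 2 more members, on chromosome 4 from 119757174 to 119761538 and on chromosome 9 from 46023165 to 46027262, after 16.9% and 28.3% at 1 h. H3K36me2 went from 100% before LPS to 70.0% at 4 h in the former and from 38.9% to 100% in the latter. The member with the most base pairs of H3K79me2 at 4 h, on chromosome 6 from 3372916 to 3379458, had it over 15.1% at 1 h and 78.5% at 4 h, with H3K36me3 over 6.10%. On chromosome 8 from 93913414 to 93920913 it covered 47.4% and 49.5%, without H3K36me3.

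H3K27me3 was also gained in few members. It appeared in 32 members (0.674%) at 1 h, beside 2.48%, and in 91 (1.92%) at 4 h, beside 4.08%. In 66 of the 91 it came from a peak present before LPS outside the member. Those 91 had H3K27ac at 4 h in 60.4%, against 78.6% of the other members. In the member with the most base pairs of it, on chromosome 7 from 26574372 to 26580895 (6524 bp), H3K27me3 covered 28.6% at 4 h while H3K27ac went from 30.4% to 12.4% and 77.9%. The next, on chromosome 18 from 61785193 to 61788600, had 12.6% at 1 h and 51.2% at 4 h and lost H3K27ac at both times. On chromosome 2 from 28242722 to 28246211, a region without PU.1, it covered 44.8% and 41.5%, and H3K27ac fell from 97.5% to none. H3K27ac was thus lost in 2 of these 3 members and not in the other.

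The authors' chromatin states, which name 1 of 27 states per 200 bp, describe the members by length. Named here by what covers them genome-wide in the peak lists, state 17 had H3K4me1 and H3K27ac, with H3K36me2 over 46.3%, and state 3 had all 3 marks. State 2 had H3K4me1 and H3K36me2, state 16 H3K4me1, and state 1 H3K36me2. State 17, which PU.1 peaks covered by 51.0%, took up 21.1% of the members' length before LPS, and state 3, covered by PU.1 in 14.3%, took up 12.9%. By these genome-wide values state 17 was rich in PU.1 and poorer in H3K36me2, and state 3 was of the opposite kind. What covered each state within members is not given here. H3K36me2 covered 79.7% of the H3K27ac-covered part of members.

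State 17 shrank to 12.0% of the length at 1 h and stood at 13.4% at 4 h, while state 3 went from 12.9% to 10.6% and then to 15.3%. State 2 rose from 20.8% to 28.3% and 29.1%, and state 1 from 14.3% to 21.2% and 19.2%. Over the length of all distal regions, state 17 went from 8.53% to 5.19% and 7.07%, and state 3 from 3.43% to 3.07% and 4.95%. State 2 went there from 9.69% to 12.4% and 14.9%, and state 1 from 7.65% to 12.5% and 12.4%. These moves are thus not particular to members. Genome-wide, state 1 covered 65.3, 101.3 and 125.4 Mb in the same order of times. Within members, 42.8% of the steps in state 3 before LPS were in state 2 at 1 h and 44.2% were still in state 3. Of those in state 17, 24.4% were in state 16 and 13.8% in state 2 at 1 h, and 44.3% were still in state 17. Between untreated cells and 4 h, 18.1% of state 17 steps went to state 3. State 2, the state of H3K4me1 with H3K36me2, was thus the largest in members after LPS. Before LPS states 17 and 2 were nearly equal, at 21.1% and 20.8%. Which libraries the states were learned from is not given in the labels, so they are not counted as separate evidence.

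After flavopiridol alone, most members still had a called peak of both marks, over less of their length, but few had an H3K36me2 peak that reached a −log10 q of 2. At that threshold 59.6% of the 2386 members it leaves had H3K4me1 and 9.30% had H3K36me2. H3K4me1 was absent from 189 members (3.98%), beside 29.9% of all distal regions and 5.43% of other distal regions with H3K27ac. It covered 64.2% of the members' length and 61.9% of the length of those other regions. By width, 56.5% of members under 1000 bp had H3K4me1, and 98.8% of those of 4000 bp and over. H3K36me2 was absent from 810 (17.1%), beside 15.7% of distal regions that had it before, and covered 66.7%, against 81.5% before. Both marks were present in 3831 members (80.7%), H3K4me1 alone in 729, H3K36me2 alone in 108 and neither in 81. H3K36me2 was shorter in 2311 members, longer in 743 and equal in 1695.

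When LPS followed flavopiridol, both marks covered less again, and at that threshold H3K4me1 was in 35.5% and H3K36me2 in 2.89%. H3K4me1 was absent from 490 members (10.3%), beside 41% of distal regions and 11.0% of other distal regions with H3K27ac. It covered 51.9% of the members' length and 49.9% of the length of those other regions. H3K36me2 was absent from 1068 (22.5%), beside 24%, and covered 57.5%. Of the 4692 members with H3K36me2 at 4 h of LPS without the inhibitor, 1018 (21.7%) lacked it with the inhibitor, beside 28.3% of all distal regions. For H3K4me1 it was 486 of 4744 (10.2%), beside 37%. The 3416 members (71.9%) that had both marks were wider, at a median of 3419 bp, than the 225 that had neither, at 1845 bp.

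The lists made with flavopiridol differ from the others as wholes. Across the genome H3K4me1 covered 143.7 Mb after flavopiridol and 117.2 Mb after flavopiridol and LPS, against 192.1 Mb in untreated cells and 200.4 Mb at 4 h. H3K36me2 covered 304.6 and 230.0 Mb, against 281.1 and 348.8 Mb. Of the H3K36me2 peaks, 12.1% and 4.91% reached a −log10 q of 2 with the inhibitor, against 46.6% and 74.7% without it. The H3K36me2 list after flavopiridol alone was thus longer than the untreated one while the members had less of the mark. The other 3 lists were shorter than those without the inhibitor. Because members were chosen for untreated H3K36me2, their count with it can only fall. Regions with H3K36me2 alone, chosen in the same way, went from 81.0% to 64.7% of their length under the mark. Where the mark was not required, distal regions with H3K27ac in H3K36me3 went from 54.4% to 70.3%, and those outside the members from 46.2% to 48.8%. The part of this choice in the contrast was not tested. The shares past the threshold were lower in both H3K36me2 lists, and their part in the members' losses was not tested.

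**Figure D5:**
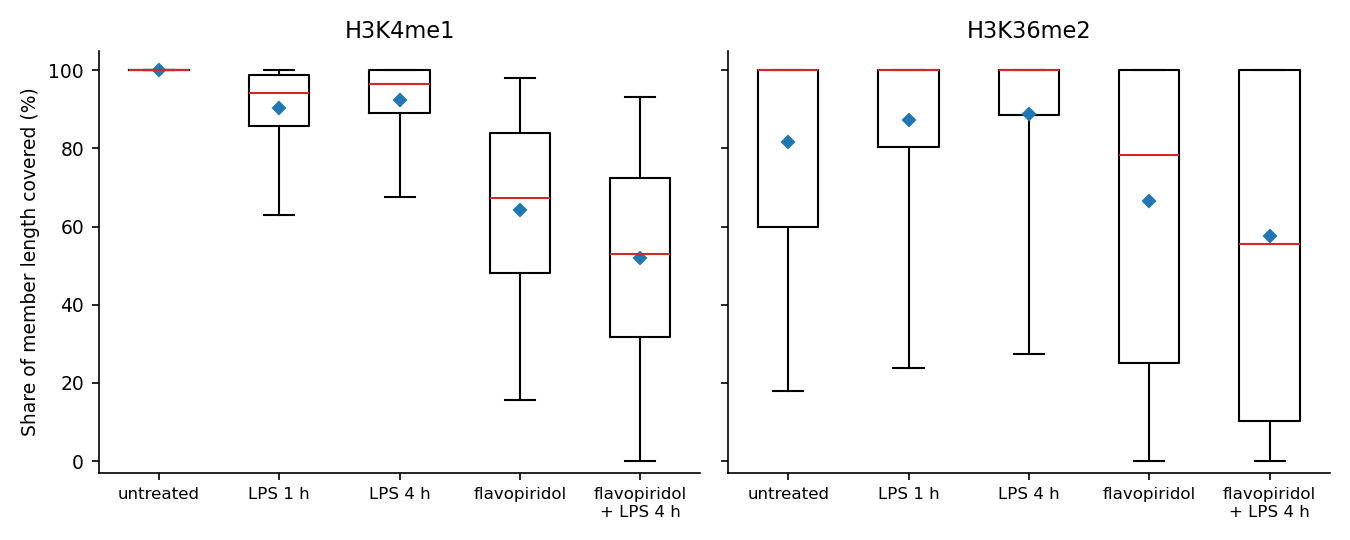
Share of each member's length covered by H3K4me1 (left) and H3K36me2 (right) (y axis, %) in 5 conditions (x axis). Boxes span the middle range with the median as a red line, whiskers run from the 5th to the 95th percentile of the 4749 members, and blue diamonds give the share of the members' summed length, which for H3K36me2 is 81.5% in untreated cells, 88.8% at 4 h of LPS, 66.7% after flavopiridol and 57.5% after flavopiridol and LPS.

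Within members, H3K4me1 was kept mainly on the acetylated core after flavopiridol, while H3K36me2 was kept alike on the core and beside it. After flavopiridol H3K4me1 covered 84.7% of the part of members that had untreated H3K27ac and 43.9% of the rest. With LPS it covered 72.7% and 31.3%. H3K36me2 covered 66.7% and 66.6% of the same parts after flavopiridol, and 57.5% and 57.6% with LPS. At PU.1 summits H3K4me1 was kept at 88.2% (87.5 to 88.9) after flavopiridol and 77.0% (76.0 to 77.9) with LPS, above its share of the length. H3K36me2 was at 57.4% (56.3 to 58.5) and 48.2% (47.1 to 49.3) of summits, below its share of the length as before treatment. The part without H3K27ac includes the ends of the regions, and position was not separated from acetylation.

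Single members showed how unlike the marks could be. The widest member with H3K36me2 at 4 h of LPS and none with flavopiridol and LPS lay on chromosome 4 from 57736820 to 57752569 (15750 bp). H3K36me2 covered 90.8% of it before LPS, 97.3% after 1 h and 100% after 4 h, and no peak was called after flavopiridol with or without LPS. H3K4me1 covered 7.70% and 22.1% in the 2 flavopiridol conditions there. The widest member of all kept H3K36me2 over 100% and 92.5%, and H3K4me1 over 63.1% and 45.6%. H3K4me1 was missing from a member at 4 h without the inhibitor in 5 cases, and the widest of these, 1546 bp on chromosome 3 from 15443338 to 15444883 without PU.1, also lacked it in both flavopiridol conditions.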

How the data were processed

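ChIP-seq peak lists of 26 of the 29 samples were used. The submitters' processing notes name Bowtie 1.0.1, the mm9 build and MACS2. The version and settings of MACS2, its control library and the segmentation tool are not given in the sources used for this work. The authors deposited, for each peak, a score, a fold enrichment ratio and the −log10 p and −log10 q, and, for each segment, a state name. Only peak intervals were used for the histone marks; the deposited fold enrichment of PU.1 ranks and describes members, and the deposited −log10 q serves 1 alternative.

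On chromosomes 1 to 19 and X, 2 intervals that shared at least 1 bp were counted as overlapping. Covered length was counted in base pairs of the untreated H3K4me1 peak. Lines of the PU.1 list that repeat an interval (107986 lines, 99588 intervals) were counted once. Named regions are the 5 widest members, the 5 with most PU.1 intervals and the 5 with the strongest PU.1 peak. They also include the widest without H3K27ac, H3K36me2, H3K4me1 or PU.1 or losing H3K36me2 with flavopiridol, and the 3 with most of each gained mark. The members, lists and rules were chosen with earlier results of these data known, and the classes of H3K27ac length were chosen after seeing the values. Neither sequence nor gene models of mm9 were used here, so no sequences are shown and the planned gene lists and motif searches were not run. The interval arithmetic was tested on simulated data. Python 3.11.15 was used with numpy 2.4.6, pandas 2.3.3, scipy 1.17.1 and matplotlib 3.10.9. The 6 alternatives were an overlap of at least 200 bp, at least 20% of the region covered, a −log10 q of at least 2, no H3K4me3 within 2 kb, members of at least 1 kb and all sequences.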

Additional observations from a re-analysis of the deposited data

Results flagged for a closer look

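The H3K36me2 change in members at 4 h of LPS had opposite signs with and without flavopiridol. Without the inhibitor, the share of the members' length under H3K36me2 changed by 7.26 percentage points, from 81.5% to 88.8%. After flavopiridol it changed by -9.16 percentage points, from 66.7% to 57.5%. Each value is 1 library against 1 library, and the difference was not tested. Flavopiridol alone was given for 1 h, so the pair with flavopiridol also differs by the 4 h of the LPS step. LPS cannot be told apart from that time. Between these conditions the whole H3K36me2 list went from 304.6 to 230.0 Mb, with 12.1% and 4.91% of its peaks at a −log10 q of at least 2. All distal regions moved the same way, by 9.03 and -10.7 percentage points, so the pattern is not one of members alone.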

How the results depend on the processing

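Each of 16 results, which are the number of members, the share with PU.1 and the share with each mark after LPS or flavopiridol, was recomputed under 6 alternatives. Taking all sequences moved none of them beyond its counting interval. An overlap of at least 200 bp moved 2, H3K36me2 at 1 h (98.5%) and with flavopiridol and LPS (76.2%). Leaving out regions with H3K4me3 within 2 kb moved 1, H3K4me1 at 1 h (99.8%). Members of at least 1 kb had H3K4me1 in 99.96% at 1 h, 99.98% at 4 h, 96.7% after flavopiridol and 90.7% after flavopiridol and LPS. When at least 20% of the region had to be covered, PU.1 lay in 69.4%, H3K27ac in 65.0% at 1 h and 72.6% at 4 h, and H3K36me2 in 98.4% at 1 h. At 4 h H3K4me3 was then gained in 1.58%, H3K36me3 in 1.23%, H3K79me2 in 0.476% and H3K27me3 in 0.276%. After flavopiridol H3K4me1 was in 94.4% and H3K36me2 in 81.0%, and with LPS in 86.3% and 73.7%. When every histone and PU.1 peak had to reach a −log10 q of 2, there were 2386 members, with PU.1 in 93.0%. H3K4me1 was in 89.1% and 93.5% of them at 1 h and 4 h, H3K27ac in 67.1% and 75.7%, and H3K36me2 in 84.0% and 89.0%. H3K4me3, H3K36me3 and H3K79me2 were gained in 11.4%, 4.48% and 1.42% at 4 h. After flavopiridol H3K4me1 was in 59.6% and H3K36me2 in 9.30%, and with LPS in 35.5% and 2.89%. In the flavopiridol lists few H3K36me2 peaks reach this threshold, 12.1% and 4.91%, so these last values count mainly what the threshold removes. Under each of the 6 alternatives the share of members with PU.1, and with H3K27ac after LPS, was above that of other distal regions with H3K27ac. From the shortest to the longest untreated H3K27ac, those regions had H3K27ac at 4 h in 49.2%, 62.4%, 81.3%, 94.5% and 99.8%. Members had 52.3%, 63.0%, 83.0%, 92.2% and 98.7%, so they were not higher in each length class. Distal regions with H3K27ac in H3K36me3 had it in 82.5% at 4 h, against 78.2% of members. Under the 1 kb and 2 kb alternatives the comparison class took in the regions removed from members (6016 and 6028 regions, from 5931). No paired analysis was possible because each mark and condition has 1 library. Read depth is unknown, and it limits which peaks could be called.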
